A study of Homo sapiens with 24 samples.

Results

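The genes described here are 34 genes of homologous recombination and of the Fanconi anemia pathway, taken by name from the 28277 genes that both count tables list. All 34 were present in both tables and all 34 passed the filter on low counts in each of the 3 fits. They were grouped by role as 4 mediators, 5 strand-exchange genes (RAD51B, RAD51C, RAD51D, XRCC2 and XRCC3), 3 genes of the RAD52 and RAD54 group, 5 genes of end resection, 4 checkpoint kinases, 8 genes of the Fanconi core complex, 3 genes of the ID2 clamp and its nuclease scaffold, and 2 inhibitors of resection.

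RNA-seq was performed on PEO1 and PEO4 cells, high-grade serous ovarian carcinoma lines from 1 patient taken before and after resistance to chemotherapy that included cisplatin. In the first set, called A, untreated BRCA2-deficient PEO1 was compared with untreated PEO4, whose BRCA2 reading frame is restored, and both were grown with sodium pyruvate. In the second set, called B, PEO1 BRCA+, a PEO1 culture in which BRCA2 is functional again, and PEO4 were either untreated or exposed to 5 µM PDS (pyridostatin, a small molecule that binds G-quadruplexes, 4-stranded structures of guanine-rich DNA) for 2 or 6 h. Each of the 8 groups had 3 libraries that the labels give as biological replicates of established lines.

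Homologous recombination repairs DNA double-strand breaks and broken replication forks from an intact sister copy. Ends are first resected to single strands, BRCA1, PALB2 and BRCA2 then prepare them for strand exchange, and XRCC2, XRCC3 and RAD54 assist it. The Fanconi anemia pathway recognises DNA interstrand crosslinks such as those made by cisplatin, attaches ubiquitin to FANCD2 and FANCI, recruits nucleases that cut around the crosslink, and passes the resulting break to homologous recombination.

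Library totals ran from 18699929 to 63882077 counts. Within set B they ran from 18699929 to 22375644 in the 6 untreated libraries and from 33260167 to 43713947 in the 12 treated ones, and ribosomal RNA genes took 0.217% to 0.474% of counts in the former and 0.0163% to 0.0369% in the latter. PDS treatment and these features of the libraries cannot be told apart, and their part in the PDS results was not tested. The 34 genes together took 0.141% to 0.219% of counts, and the lowest count of any of them in any library was 60, for RAD51B. All 9 markers of ovarian carcinoma epithelium were detected, although mean MECOM was at 0.0103 CPM (counts per 1e6 counts, here scaled by TMM) in PEO4 of set A. Of 6 leukocyte markers, PTPRC and CD3E, which mark leukocytes and T cells, never exceeded a group mean of 0.0228 CPM, while CD68 and CD14, markers of macrophages and monocytes, reached group means of 72.4 and 5.90 CPM. Summed leukocyte markers were 33.8 to 57.1 CPM in untreated PEO4 of set B, 73.6 to 84.0 CPM after 2 h of PDS and 70.2 to 79.7 CPM after 6 h, and in PEO1 BRCA+ 38.8 to 41.6, 45.2 to 49.0 and 46.3 to 48.3 CPM. Summed fibroblast markers were 36.4 to 38.6 CPM in untreated PEO4 of set B and 3.82 to 5.00 CPM after 6 h of PDS. In PEO1 BRCA+ they were 5.18 to 7.23 CPM untreated and 2.76 to 3.74 CPM after 6 h. The line difference was reversed in set A, with 32.7 to 37.1 CPM in BRCA2-deficient PEO1 and 8.47 to 13.6 CPM in PEO4. Of these markers, COL1A1, COL1A2, COL3A1 and PDGFRB reached group means of 30.5, 8.05, 6.80 and 3.25 CPM. DCN, LUM and PDGFRA never exceeded a group mean of 0.326 CPM. Both marker sums moved with PDS and the fibroblast sum also with the line, and their part in the results was not tested. In such bulk samples, fewer cells of a type and less RNA per cell cannot be told apart.

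BRCA2 itself, whose status sets BRCA2-deficient PEO1 apart from the other cultures, was transcribed in every group. In set A it was measured at 7.99, 8.57 and 8.15 CPM in the BRCA2-deficient PEO1 libraries and at 11.3, 16.1 and 13.0 CPM in PEO4. The groups did not overlap, and BRCA2 was 1.63-fold higher in PEO4 (log2 fold change 0.70, SE 0.144, edgeR quasi-likelihood test with Benjamini-Hochberg adjustment, adjusted p = 0.000973). In set B, untreated PEO1 BRCA+ had 7.86, 8.80 and 8.08 CPM and untreated PEO4 had 7.92, 7.33 and 9.26 CPM. These overlap, with a log2 fold change of -0.01 (SE 0.122, adjusted p = 0.930 by edgeR). The difference between the 2 line differences, fitted jointly over both sets, was 0.68 on the log2 scale (SE 0.181, adjusted p = 0.00306). BRCA2-deficient PEO1 and PEO1 BRCA+ had overlapping values, while PEO4 was higher in set A than in untreated set B, with the sets scaled separately. BRCA2 lies at chr13:32315086-32400268 (hg38, + strand), and counts of its mRNA do not show whether the reading frame is intact. Per kilobase of its 11954-base canonical transcript it was among the lowest members, at 0.689 CPM per kb in BRCA2-deficient PEO1.

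Across the 34 genes, untreated PEO4 differed from BRCA2-deficient PEO1 by higher levels of 11 and lower levels of 12, at an adjusted p under 0.05. Among all 15882 genes tested, 30.1% were called higher and 31.6% lower, against 32.4% and 35.3% of the repair genes. The shares were close to the background and are no result about the set as a whole. A change of more than 2-fold was seen for 5 of the repair genes (14.7%) and for 25.8% of all genes. The median log2 fold change was 0.00 over the repair genes and -0.01 over all genes.

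Against PEO1 BRCA+, untreated PEO4 was higher for 16 repair genes (47.1%, background 34%) and lower for 8 (23.5%, background 34.6%). The median of the repair genes was 0.12, against 0.00 over all 17020 genes tested. The more-than-2-fold criterion was met by 2 repair genes (5.9%), EXO1 and FANCB, both lower in PEO4, and by 24.8% of all genes. Of the 16 higher calls, 11 were kept under every alternative tried, and all 8 lower calls were.

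The 2 line comparisons share no library. In both, 8 genes were higher in PEO4 and 7 were lower, 1 was called in opposite directions and 3 were called in neither. The shares higher in both, lower in both and opposite were 23.5%, 20.6% and 2.94%, near the 20.7%, 21.7% and 6% of all genes tested in both sets. RAD50, RIF1, BARD1, CHEK2, RAD52, FANCE, NBN and SLX4 were higher in both, and BRCA1, XRCC2, ATR, FANCA, FANCB, EXO1 and TP53BP1 were lower in both. The call of SLX4 in set B was lost under at least 1 alternative. Across the 34 genes the 2 sets of log2 fold changes had a Pearson r of 0.734 and a Spearman rho of 0.719. Over the 15396 genes tested in both sets the values were 0.734 and 0.642, so that the likeness of the repair genes was that of genes at large. The genes are not independent replicates, and both comparisons use the same pair of lineages.

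**Figure D1:**
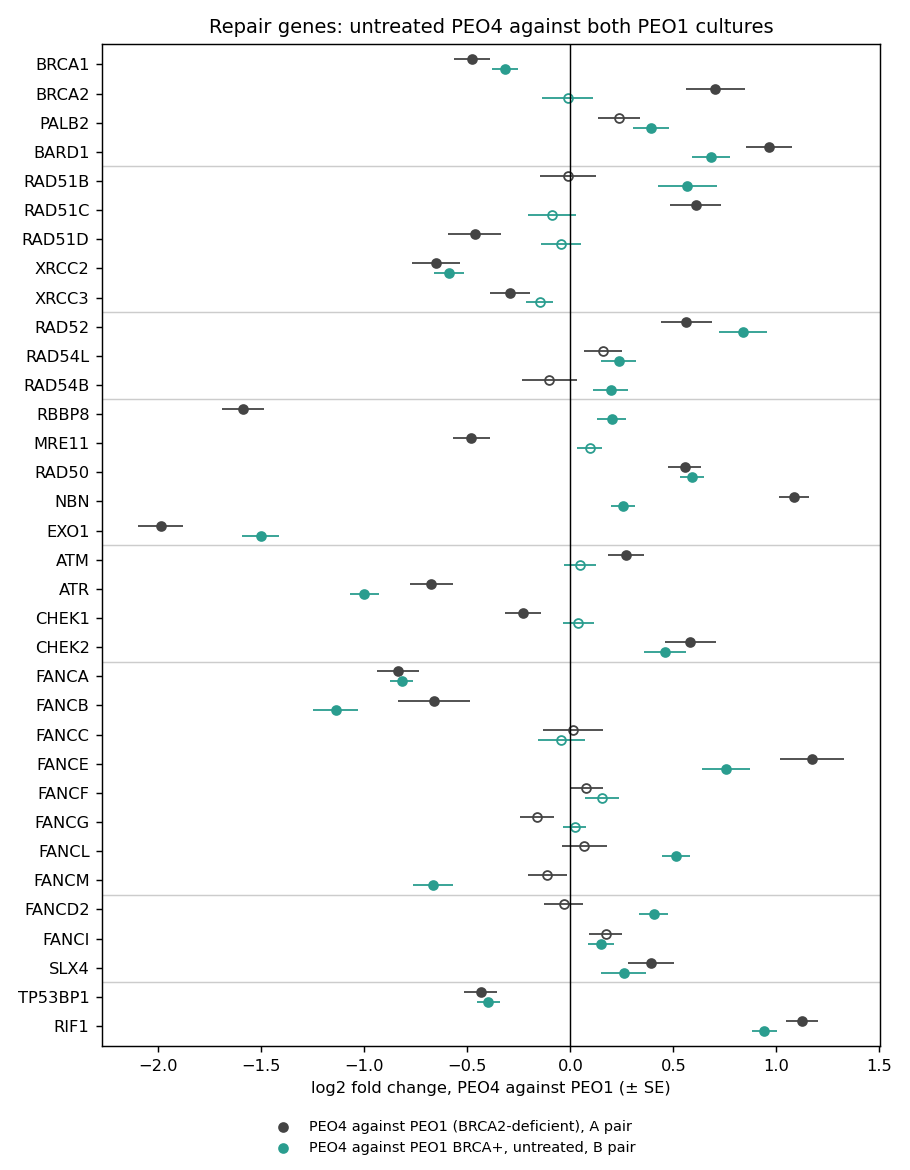
Log2 fold change of each repair gene in untreated PEO4 against BRCA2-deficient PEO1 (dark) and against PEO1 BRCA+ (green), with horizontal bars of 1 SE, n = 3 libraries per group. Filled points have an adjusted p under 0.05, and grey lines separate the roles. Most pairs of points lie on the same side of 0, while RBBP8 lies at -1.59 in the first comparison and at 0.20 in the second.

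Among the mediators, BARD1, the obligate partner of BRCA1 (chr2:214725646-214809683, - strand), was at 10.7 to 12.7 CPM in BRCA2-deficient PEO1 and 22.1 to 25.0 CPM in PEO4. It was 1.95-fold higher in PEO4 of set A and 1.61-fold higher in set B (log2 fold changes 0.96 and 0.68, edgeR adjusted p = 8.71e-06 and 5.46e-07). BRCA1 moved the other way, with log2 fold changes of -0.48 and -0.32 (adjusted p = 0.000396 and 8.13e-05). BRCA1 and BARD1 act as a heterodimer, and their mRNAs thus differed between the lines in opposite directions. PALB2, which bridges BRCA1 and BRCA2, was 0.39 higher on the log2 scale in PEO4 of set B (adjusted p = 0.000296), and its value in set A was 0.24 (adjusted p = 0.0576).

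The 5 strand-exchange genes did not move as a group. XRCC2 was lower in PEO4 in both sets, at 47.3, 59.8 and 57.2 CPM in BRCA2-deficient PEO1 against 35.5, 39.3 and 29.6 CPM in PEO4 of set A (log2 fold changes -0.65 and -0.59, edgeR adjusted p = 0.000401 and 9.13e-08). RAD51C was 0.61 higher in PEO4 in set A (adjusted p = 0.000907) and at -0.09 in set B (adjusted p = 0.511). RAD51B showed the reverse, with -0.01 in set A (adjusted p = 0.940) and 0.57 in set B (adjusted p = 0.00114). For both genes the difference between the line differences passed the test, at 0.67 for RAD51C and -0.61 for RAD51B (adjusted p = 0.00108 and 0.00569). RAD51D, whose locus also gives rise to a readthrough transcript, was lower in PEO4 of set A (-0.47, adjusted p = 0.00686). XRCC3 had -0.29 there, with an adjusted p of up to 0.0974 when single libraries were left out.

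RAD52, a single-strand annealing protein on which BRCA2-deficient cells are known to rely, was higher in PEO4 in both sets. It was measured at 11.1 to 13.4 CPM in BRCA2-deficient PEO1 and 16.1 to 19.8 CPM in PEO4 of set A, and at 6.23 to 7.31 CPM in PEO1 BRCA+ and 11.3 to 13.3 CPM in PEO4 of set B. The groups did not overlap in either set, and the log2 fold changes were 0.56 and 0.84 (edgeR adjusted p = 0.00151 and 5.13e-07). RAD54L and RAD54B, motor proteins of strand exchange, had log2 fold changes between -0.10 and 0.23 in these comparisons.

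RBBP8, which encodes CtIP, the protein that starts end resection with MRE11, was the member whose line difference differed most between the sets. It stands at chr18:22798261-23026488 (hg38, + strand). In BRCA2-deficient PEO1 it was at 715, 621 and 597 CPM, by far the highest of all the repair genes per length at 197 CPM per kb, where the next member had 20.7 CPM per kb. In PEO4 of set A it was at 242, 197 and 203 CPM. The groups did not overlap and RBBP8 was at 0.332 of its PEO1 level in PEO4 (log2 fold change -1.59, SE 0.101, edgeR adjusted p = 4.1e-08). In set B, PEO1 BRCA+ had 141 to 149 CPM and PEO4 had 151 to 197 CPM, with a log2 fold change of 0.20 (adjusted p = 0.0139). That call was lost without replicate 3 of PEO1 BRCA+ (0.18, adjusted p = 0.0516) or without replicate 2 of PEO4 (0.07, adjusted p = 0.265). The joint fit over both sets gave a difference of -1.82 between the line differences (SE 0.118, adjusted p = 6.77e-13), the only repair gene past 2-fold in that test. Among the untreated groups the level in BRCA2-deficient PEO1 stood apart, although these CPM come from sets scaled separately. The joint fit scaled both sets together and tested the difference between the line differences, not the levels of the PEO1 cultures.

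EXO1, the long-range resection nuclease (chr1:241847967-241895148, + strand), had the largest line difference of the 34 genes in each set. It was at 51.9, 57.8 and 58.6 CPM in BRCA2-deficient PEO1 and at 14.4, 16.0 and 11.9 CPM in PEO4 of set A. It was at 44.3, 42.1 and 41.0 CPM in PEO1 BRCA+ and at 16.4, 14.2 and 14.2 CPM in PEO4 of set B. Every PEO1 library was above every PEO4 library, and EXO1 was at 0.252 and 0.353 of its PEO1 level in PEO4 (log2 fold changes -1.99 and -1.504, SE 0.112 and 0.0908, edgeR adjusted p = 1.34e-08 and 1.96e-13). The drop was larger in set A by 0.52 on the log2 scale (-0.52, adjusted p = 0.00338).

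MRE11, RAD50 and NBN form the complex that first binds broken ends and, with CtIP, nicks them. Their mRNAs did not differ between the lines in step. RAD50 was 0.56 and 0.59 higher in PEO4 on the log2 scale (edgeR adjusted p = 6.14e-05 and 2.85e-09). NBN, which carries the complex to the nucleus and binds ATM, was at 89.0, 101 and 95.7 CPM in BRCA2-deficient PEO1 and at 196, 211 and 198 CPM in PEO4 of set A. It was 2.12-fold higher in set A and 1.19-fold higher in set B (adjusted p = 7.53e-08 and 0.000342), and these folds differed (log2 difference 0.80, adjusted p = 7.61e-09). MRE11, the nuclease, was lower in PEO4 of set A (-0.48, adjusted p = 0.000569) and at 0.09 in set B (adjusted p = 0.187), a difference of -0.60 (adjusted p = 1.7e-05).

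**Figure D2:**
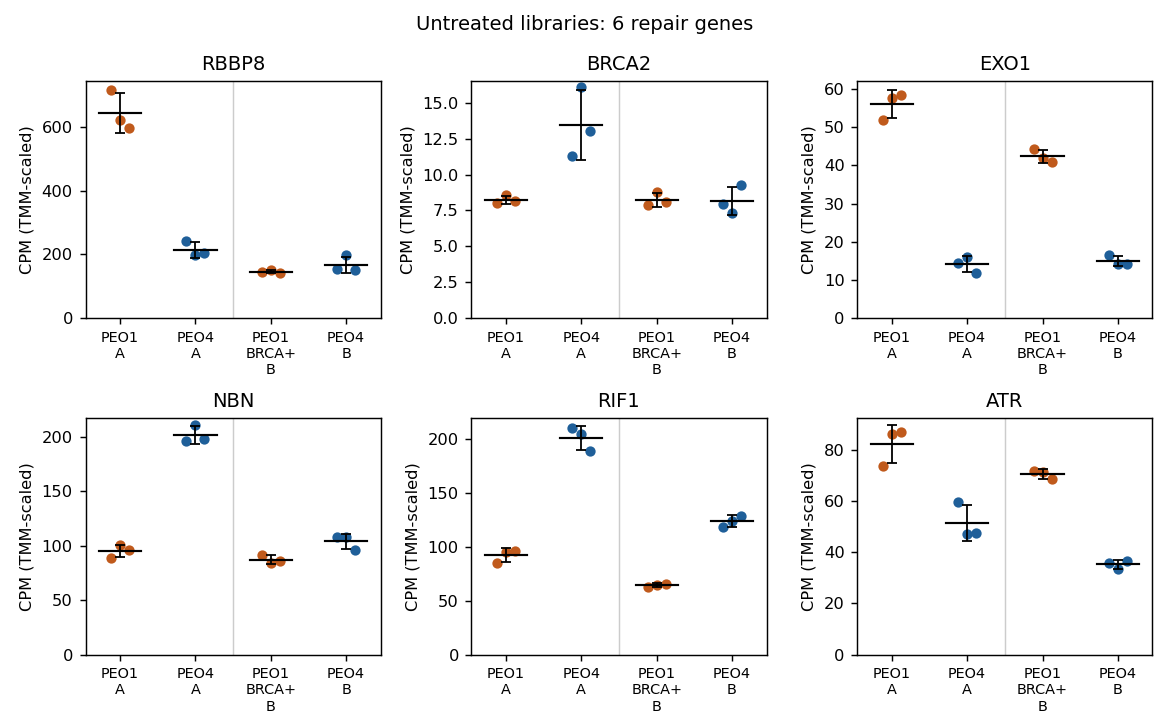
TMM-scaled CPM of 6 repair genes in the untreated libraries, 1 point per library, with the mean (line) and SD (bars) of 3 libraries and a vertical line between sets A and B, which were scaled separately. RBBP8 reaches 597 to 715 CPM in BRCA2-deficient PEO1 only, EXO1 and ATR are lower in PEO4 in both sets, RIF1 is higher in PEO4 in both, and BRCA2 differs in set A.

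Of the checkpoint kinases, ATR, which senses single-stranded DNA at stalled forks, was lower in PEO4 in both sets. It was at 73.6, 86.1 and 87.1 CPM in BRCA2-deficient PEO1 and 59.5, 47.1 and 47.6 CPM in PEO4, and at 68.5 to 71.9 CPM in PEO1 BRCA+ and 33.4 to 36.6 CPM in PEO4 of set B (log2 fold changes -0.68 and -0.9998, edgeR adjusted p = 0.00011 and 2.63e-12). CHEK2, the effector kinase downstream of ATM, was higher in PEO4 in both (0.58 and 0.46, adjusted p = 0.00137 and 0.00037). CHEK1, the effector of ATR, and ATM itself, the kinase that responds to double-strand breaks, had log2 fold changes between -0.23 and 0.27 and no call that every left-out library preserved.

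Within the Fanconi core complex, the ubiquitin ligase of the pathway, FANCA and FANCB were lower in PEO4. FANCA was at 25.4 to 29.5 CPM in BRCA2-deficient PEO1 and 14.4 to 16.5 CPM in PEO4, and at 58.4 to 65.3 CPM and 33.5 to 36.0 CPM in set B (log2 fold changes -0.84 and -0.82, edgeR adjusted p = 1.46e-05 and 3.07e-12). FANCB, the X-linked member (chrX:14690388-14873255, - strand), had log2 fold changes of -0.66 and -1.14 (adjusted p = 0.00561 and 9.95e-10). FANCE, which links the core to FANCD2, went the opposite way at 4.02, 4.24 and 4.23 CPM in BRCA2-deficient PEO1 and 11.05, 8.68 and 8.33 CPM in PEO4 (2.26-fold, adjusted p = 3.15e-05), and it was 1.69-fold higher in set B (adjusted p = 2.55e-06). FANCL, the catalytic subunit, and FANCM, the translocase that anchors the core to DNA, differed in set B alone, at 0.51 and -0.67 (adjusted p = 2.46e-07 and 1.29e-06), and for both the difference from set A passed the test (-0.48 and 0.52, adjusted p = 0.000479 and 0.00133). FANCC, FANCF and FANCG stayed between -0.16 and 0.15 in both sets with no call.

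FANCD2, whose ubiquitinated form clamps on DNA, was 0.40 higher on the log2 scale in PEO4 of set B (adjusted p = 2.73e-05) and at -0.03 in set A (adjusted p = 0.788), a difference of -0.47 (adjusted p = 0.00168, all by edgeR). Its partner FANCI had 0.17 and 0.15. SLX4, the scaffold for the nucleases that unhook crosslinks, was 0.39 higher in PEO4 of set A (adjusted p = 0.00857). In set B its groups overlapped, at 13.7 to 16.5 CPM in PEO1 BRCA+ and 15.1 to 21.6 CPM in PEO4. The inhibitors of resection were opposed to each other: TP53BP1 (53BP1) was lower in PEO4 (-0.44 and -0.40, adjusted p = 0.000511 and 1.12e-06), and RIF1, which 53BP1 recruits, was higher. RIF1 (chr2:151409883-151508013, + strand) was at 85.4, 95.8 and 96.4 CPM in BRCA2-deficient PEO1 and 210, 205 and 189 CPM in PEO4, 2.18-fold higher, and it was 1.92-fold higher in set B (adjusted p = 8.83e-08 and 5.35e-13).

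The difference between the line differences was called for 14 repair genes, 6 of them higher and 8 lower in set A than in set B. Over the 17531 genes of the joint fit, 18.9% were called higher, 23.7% lower and 15% past 2-fold. The sets differed in PEO1 culture and medium together, and whether library preparation also differed was not given in the sources used here. Ribosomal RNA genes took 2.97e-05% to 0.000208% of counts in set A and 0.217% to 0.474% in untreated set B. Library totals were 32528913 to 63882077 counts in set A and 18699929 to 22375644 in untreated set B. These differences cannot be told apart, and their part in the difference between the sets was not tested. Over 18 genes of S phase and proliferation, PEO4 had 3 at higher and 11 at lower levels in set A, against 3 and 8 in set B. Their summed level was 2873 to 3130 CPM in BRCA2-deficient PEO1 and 2125 to 2469 CPM in PEO4. PCNA, the replication clamp, had the largest change of that list in each set (-1.37 and -1.17, adjusted p = 4.1e-08 and 2.82e-13), and the part of proliferation in the repair gene differences was not tested.

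After PDS, repair genes changed in both directions and by less than 2-fold from untreated cells in either line at either time. After 2 h in PEO1 BRCA+, 8 repair genes were higher (23.5%, background 26.4%) and 8 lower (23.5%, background 26.2%), and none passed 2-fold, against 7.57% of all genes. After 6 h, 10 were higher (29.4%, background 27.0%) and 7 lower (20.6%, background 26.0%), again with none past 2-fold, against 8.13% of all genes. In PEO4 after 2 h, 8 were higher (23.5%, background 33.3%) and 12 lower (35.3%, background 32.0%), with 17.4% of all genes past 2-fold. In PEO4 after 6 h, 13 were higher (38.2%, background 34.6%) and 11 lower (32.4%, background 35.2%), with 22.6% of all genes past 2-fold. Read against the background, the counts called show no common direction of the set, and no repair gene reached the size of change that many other genes did.

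The balance of directions depended on scaling. With plain library totals in place of TMM, the median of all genes shifted by -0.15, -0.15, -0.13 and -0.16 on the log2 scale for the 4 comparisons in the order just given. The repair genes then split into 3 higher and 16 lower, 5 and 12, 5 and 17, and 10 and 15. With upper-quartile scaling the splits were 5 and 13, 9 and 10, 6 and 13, and 10 and 15. Values given below are from TMM, and the repair genes described by name as rising or falling kept their calls under all of these scalings unless stated.

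**Figure D3:**
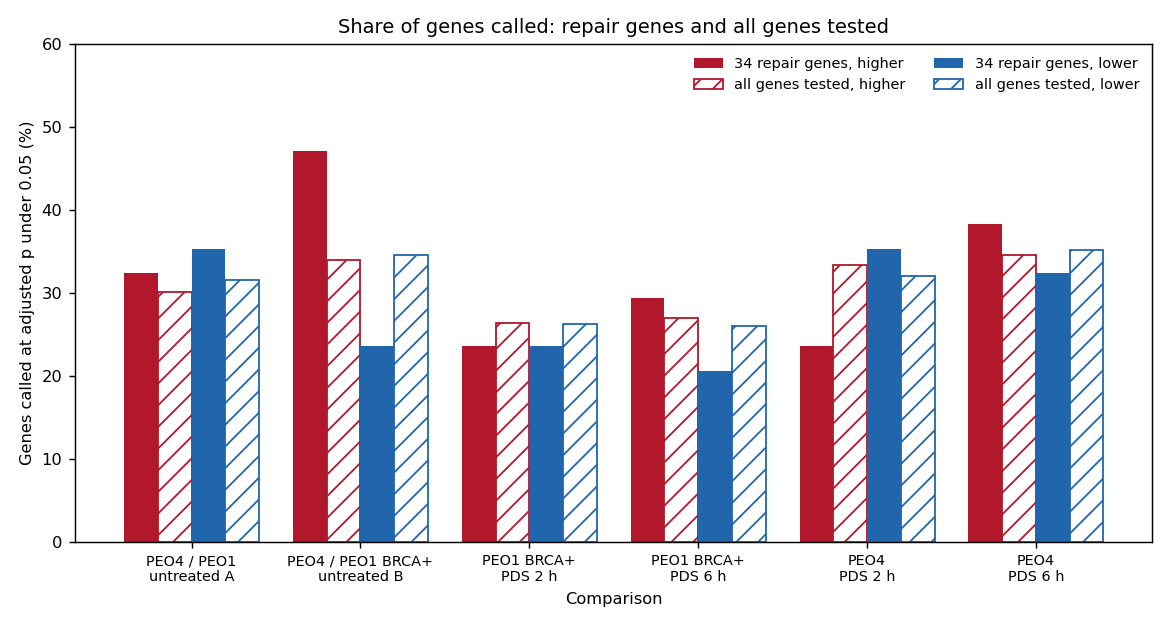
Percent of genes called higher (red) and lower (blue) at an adjusted p under 0.05 in 6 comparisons, for the 34 repair genes (filled bars) and for all genes tested (hatched bars). The largest gap is between untreated PEO4 and PEO1 BRCA+, where 47.1% of the repair genes and 34% of all genes were higher.

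At both times in both lines, 6 repair genes were called lower (17.6%, background 10.4%) and 3, NBN, CHEK1 and FANCL, were called higher (8.82%, background 14.2%), each with at least 1 call lost with library totals. The lower calls of SLX4, RAD52, PALB2 and ATM were kept under every alternative tried, and some of those of FANCD2 and TP53BP1 were not. SLX4 was at 13.7, 16.5 and 15.9 CPM in untreated PEO1 BRCA+, 7.84, 8.58 and 9.31 CPM after 2 h and 10.7, 9.28 and 9.19 CPM after 6 h. In PEO4 it was at 15.1, 18.5 and 21.6 CPM untreated, 12.1, 11.5 and 10.8 CPM after 2 h and 12.4, 12.4 and 12.2 CPM after 6 h. Every treated library was below every untreated library of its line, and the log2 fold changes were -0.84 and -0.66 in PEO1 BRCA+ and -0.68 and -0.57 in PEO4, with edgeR adjusted p from 8.02e-07 to 3.55e-05. RAD52 fell by 0.61 on the log2 scale at both times in PEO1 BRCA+ and by 0.68 and 0.36 in PEO4. PALB2 fell by 0.31 and 0.36 in PEO1 BRCA+ and by 0.57 and 0.52 in PEO4, from 24.9, 24.6 and 23.7 CPM to 17.3, 16.9 and 16.9 CPM after 6 h. ATM fell by 0.29 and 0.45 in PEO1 BRCA+ and by 0.44 and 0.42 in PEO4. For none of SLX4, RAD52, PALB2 and ATM did the difference between the lines' responses pass the test (adjusted p between 0.0872 and 0.858 at 2 and 6 h), which does not show that the lines responded alike. The time points of a line share its untreated libraries.

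A second group rose in both lines by 6 h. RAD51C was at 8.77, 8.01 and 8.39 CPM in untreated PEO1 BRCA+ and 11.6, 11.3 and 12.1 CPM after 6 h, and at 7.79, 8.94 and 6.96 CPM in PEO4 before treatment and 13.7, 14.4 and 14.1 CPM after 6 h (log2 fold changes 0.48 and 0.84, edgeR adjusted p = 0.000608 and 1.96e-07). NBN rose by 1.25-fold and 1.58-fold (adjusted p = 3.11e-05 and 1.73e-10). EXO1 rose from 41.0 to 44.3 CPM to 63.3 to 67.1 CPM in PEO1 BRCA+ and from 14.2 to 16.4 CPM to 28.3 to 31.0 CPM in PEO4 (log2 fold changes 0.62 and 0.98, adjusted p = 6.26e-07 and 6.56e-10). Its level after 6 h in PEO4 was still below every PEO1 BRCA+ library. In all, 7 repair genes were called higher at 6 h in both lines, 6 lower in both, and 1, MRE11, in opposite directions. These shares of 20.6%, 17.6% and 2.94% stood against 19.5%, 16% and 5.76% of all genes. Of the genes called alike in both lines, XRCC2, RAD54B, CHEK1 and FANCD2 lost their call in PEO1 BRCA+ under at least 1 alternative. FANCL and TP53BP1 lost theirs in PEO4. For MRE11 the difference of the responses passed the test (-0.40, adjusted p = 0.000471), while its call in PEO4 had an adjusted p of up to 0.139 without single libraries and its call in PEO1 BRCA+ was lost with library totals (0.11, adjusted p = 0.150). Across the 34 genes the 6 h changes of the lines had a Pearson r of 0.538, and over all 17020 genes r was 0.413. At 2 h the values were 0.721 and 0.398, and the lines share no library in these comparisons.

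**Figure D4:**
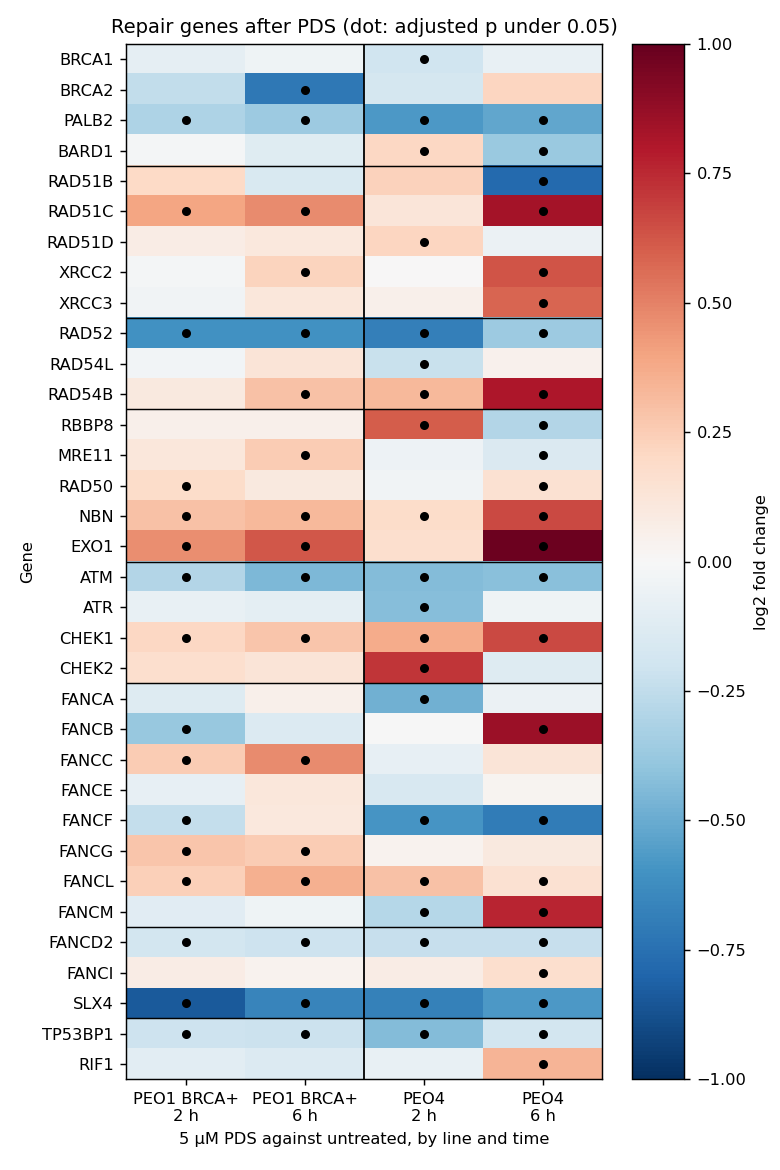
Log2 fold change of each repair gene after 2 or 6 h of 5 µM PDS against untreated cells of the same line, on a colour scale from -1 (blue) to 1 (red), with a dot at an adjusted p under 0.05 and black lines between roles. SLX4, RAD52, PALB2 and ATM are blue in all 4 columns, and the column of PEO4 at 6 h holds the strongest red, for EXO1 at 0.98.

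BRCA2 was the repair gene that fell most in PEO1 BRCA+ by 6 h. It was at 7.86, 8.80 and 8.08 CPM untreated, 6.20, 6.75 and 7.97 CPM after 2 h and 5.15, 4.67 and 5.25 CPM after 6 h. The 6 h libraries lay below all others of that line, and the log2 fold change was -0.71 (SE 0.123, edgeR adjusted p = 2.73e-05). In PEO4 BRCA2 was at 7.92, 7.33 and 9.26 CPM untreated, 7.22, 7.13 and 7.37 CPM after 2 h and 10.6, 9.64 and 8.11 CPM after 6 h. There the 6 h value was 0.21 (adjusted p = 0.110), and the responses of the lines differed by 0.93 on the log2 scale (SE 0.169, adjusted p = 7.94e-05).

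The response of PEO4 differed from that of PEO1 BRCA+ for 9 repair genes at 2 h, 3 with a higher and 6 with a lower value in PEO4. Among all genes tested these shares were 19.3% and 18%, and 11% differed by more than 2-fold, which no repair gene did. At 6 h, 10 repair genes had a higher value in PEO4 (29.4%, background 24.4%) and 4 a lower one (11.8%, background 23.0%), none by more than 2-fold, against 14.8% of all genes. All 14 of the calls at 6 h were kept under every alternative tried.

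FANCB, FANCM and RAD51B changed in PEO4 between 2 and 6 h of PDS. FANCB was at 4.72, 4.37 and 4.51 CPM in PEO4 without PDS, 4.39, 4.50 and 4.70 CPM after 2 h and 8.11, 8.45 and 8.05 CPM after 6 h. The 6 h libraries were above all earlier ones (log2 fold change 0.85, edgeR adjusted p = 1.13e-07), and the response exceeded that of PEO1 BRCA+ by 0.99 (adjusted p = 4.12e-06). FANCM was at 10.997, 10.1 and 9.81 CPM untreated, 8.83, 7.05 and 9.48 CPM after 2 h and 17.1, 18.4 and 17.003 CPM after 6 h, a log2 fold change of 0.76 that exceeded that of PEO1 BRCA+ by 0.80 (adjusted p = 9.43e-08 and 1.84e-05). After 6 h every PEO4 library was above the PEO1 BRCA+ libraries of that time, which had 15.7 to 16.2 CPM. RAD51B moved the other way, at 4.29, 4.02 and 4.24 CPM untreated, 4.36, 5.21 and 5.18 CPM after 2 h and 2.41, 2.47 and 2.42 CPM after 6 h (log2 fold change -0.78, adjusted p = 1.92e-05). RAD51B is the longest of the genes, at 910.4 kb (chr14:67819779-68730218, + strand).

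Other genes of strand exchange and checkpoint signalling rose in PEO4 by 6 h. XRCC2 went from 34.3 to 35.9 CPM to 53.9 to 54.3 CPM, XRCC3 from 42.8 to 47.2 CPM to 65.0 to 71.2 CPM and RAD54B from 24.6 to 25.5 CPM to 43.8 to 44.5 CPM. Their log2 fold changes were 0.63, 0.58 and 0.81 (edgeR adjusted p from 2.02e-09 to 2.34e-08), and each exceeded that of PEO1 BRCA+ by 0.41 to 0.52. CHEK1 rose by 0.66 (adjusted p = 2.05e-08), from 52.9 to 67.8 CPM to 96.2 to 97.2 CPM, and RIF1 by 0.34 (adjusted p = 1.16e-05). RAD54B shares its locus with FSBP, and CHEK1 with STT3A, on the same strand, so reads of these genes could have been divided between them. FANCF, an intronless gene of 3.3 kb and adaptor of the core complex, fell in PEO4 by 0.59 at 2 h and 0.70 at 6 h on the log2 scale, from 28.4 to 31.0 CPM to 16.9 to 19.2 CPM. Its response at 6 h was 0.81 lower than in PEO1 BRCA+ (-0.81, adjusted p = 4.02e-06).

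A transient rise at 2 h was seen in PEO4 for RBBP8 and CHEK2. RBBP8 was at 152, 197 and 151 CPM untreated, 255, 262 and 245 CPM after 2 h and 134, 133 and 141 CPM after 6 h. It rose by 0.61 at 2 h, and the 6 h value was 0.29 below the untreated one on the log2 scale (edgeR adjusted p = 4.05e-08 and 0.000615). Without replicate 2 of untreated PEO4 the 6 h value was -0.15 (adjusted p = 0.0146). In PEO1 BRCA+ RBBP8 had 141 to 152 CPM in all 9 libraries, and the response at 2 h differed between the lines by 0.55 (adjusted p = 8.66e-05). CHEK2 was at 11.1, 11.5 and 13.7 CPM untreated, 18.6, 21.5 and 19.2 CPM after 2 h and 9.99, 10.8 and 12.3 CPM after 6 h, with a log2 fold change of 0.71 at 2 h (adjusted p = 4.01e-07) and a difference of 0.54 from PEO1 BRCA+ (adjusted p = 0.00315). ATR and FANCA had the mirror pattern in PEO4, with a fall of 0.43 and 0.48 at 2 h and values of -0.04 and -0.06 at 6 h. BARD1 was 0.37 lower at 6 h in PEO4 (adjusted p = 0.000653).

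**Figure D5:**
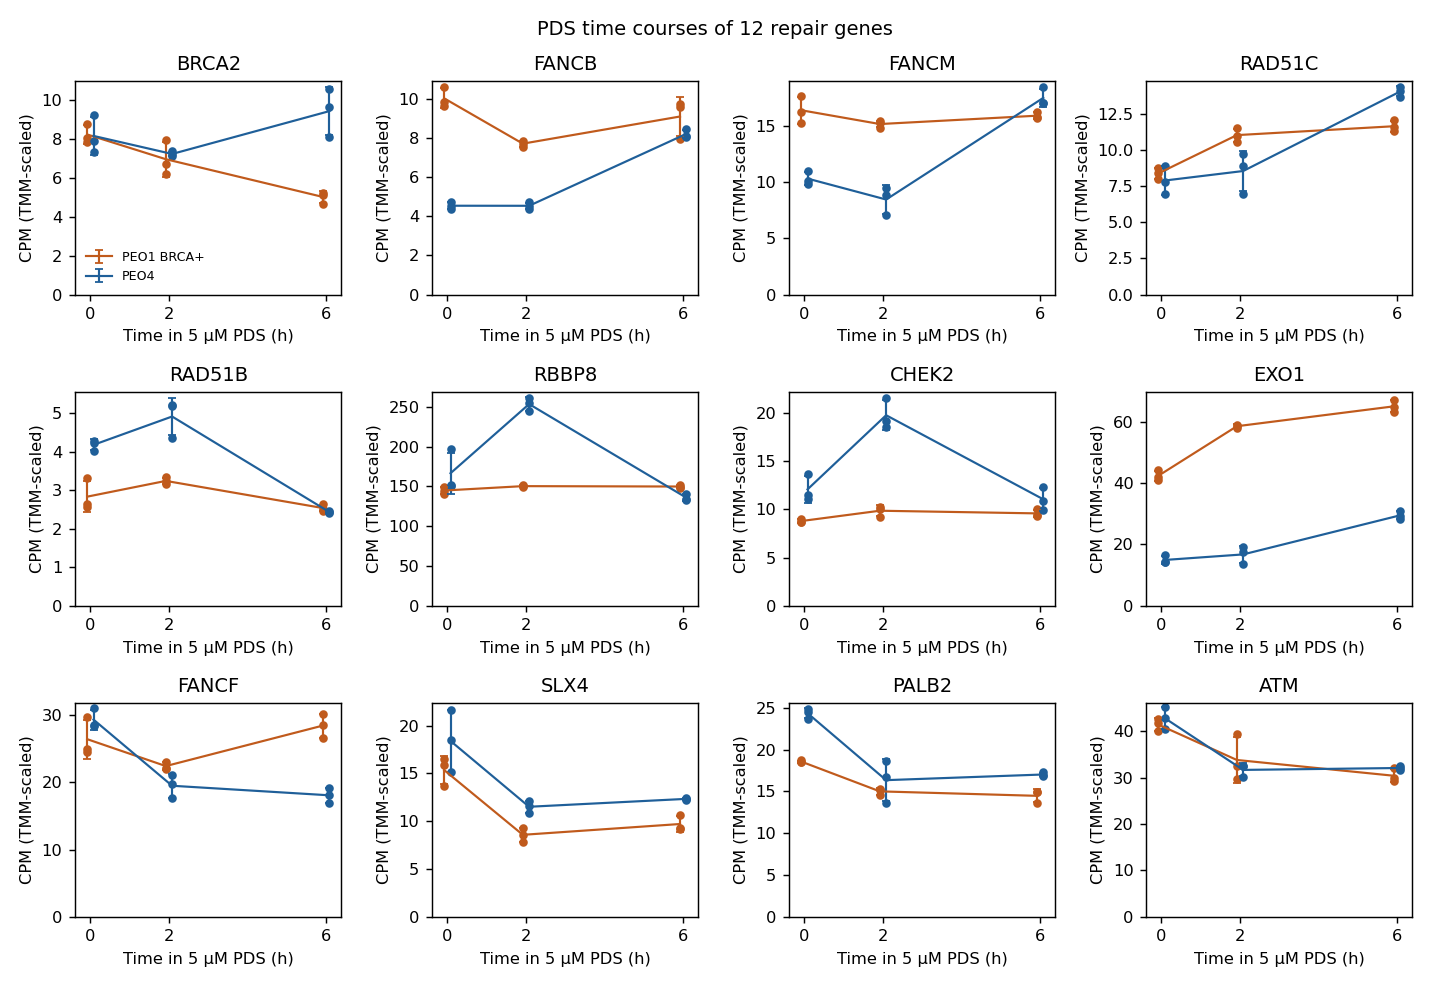
TMM-scaled CPM of 12 repair genes in untreated cells (0 h) and after 2 or 6 h of 5 µM PDS in PEO1 BRCA+ (orange) and PEO4 (blue), 1 point per library, with lines through the means of 3 libraries and bars of 1 SD. BRCA2 falls by 6 h in PEO1 BRCA+ (-0.71) and has 0.21 in PEO4, FANCB and FANCM rise at 6 h in PEO4, RBBP8 and CHEK2 peak at 2 h in PEO4, and SLX4 and PALB2 fall in both lines by 2 h.

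FANCL rose by 0.24 and 0.35 at 2 and 6 h in PEO1 BRCA+ (edgeR adjusted p = 0.00402 and 7.33e-05) and by 0.29 at 2 h in PEO4 (adjusted p = 0.000238). Its call at 2 h in PEO1 BRCA+ was lost with library totals, and that at 6 h in PEO4 (0.15, adjusted p = 0.0328) was lost with every other scaling. At 6 h in PEO1 BRCA+ FANCC, which holds the core complex in the nucleus, rose by 0.48 (adjusted p = 0.000482) and FANCG, another core subunit, by 0.26 (adjusted p = 0.000369), although the call of FANCG was lost with library totals. TP53BP1 fell by 0.21 at both times in PEO1 BRCA+ and by 0.43 and 0.18 at 2 and 6 h in PEO4 (adjusted p = 0.00355, 0.00275, 3.81e-07 and 0.00604). The last of these calls was lost without replicate 1 of PEO4 at 6 h (-0.15, adjusted p = 0.0507). FANCD2 had values between -0.23 and -0.19 in all 4 comparisons, each past the test, although only the call at 6 h in PEO4 was kept under every alternative. FANCE, at -0.16 to 0.11, had no call. BRCA1, RAD51D, RAD54L, RAD50 and FANCI stayed between -0.22 and 0.21 against untreated cells, and no such call of theirs was kept under every alternative. RAD54L and RAD50 were called higher at 6 h than at 2 h in PEO4, and those calls were kept.

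Between 2 and 6 h of PDS, 22 of the 34 repair genes changed in PEO4. Of them 17 were higher at 6 h than at 2 h (50%, background 28.9%) and 5 lower (14.7%, background 31.3%), with a median log2 change of 0.20 against -0.02 over all genes. FANCM (1.05) rose and RAD51B (-1.01) fell by more than 2-fold between these times, as 12% of all genes did in either direction. Of the 17 higher calls, 16 were kept under every alternative tried. In PEO1 BRCA+ 3 were higher (8.8%, background 3.96%) and 1 lower (2.9%, background 2.98%), none past 2-fold against 0.170% of all genes, and none of these 4 calls was kept under every alternative. Whether the changes between 2 and 6 h themselves differ between the lines was not tested.

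Proliferation genes also changed after PDS. In PEO1 BRCA+, 12 of the 18 S phase and proliferation genes were higher and 1 lower at 6 h, and in PEO4 11 were higher and 3 lower. Their median log2 fold changes were 0.31 and 0.36, against 0.07 and 0.04 over the 34 repair genes and -0.03 over all genes in both lines. Among all genes tested at 6 h, 27.0% were called higher and 26.0% lower in PEO1 BRCA+, and 34.6% and 35.2% in PEO4. Their summed level went from 3138 to 3231 CPM to 3792 to 3869 CPM in PEO1 BRCA+ and from 2677 to 2927 CPM to 3383 to 3414 CPM in PEO4. Of 33 other genes of the same repair pathways, such as the RPA and FAAP subunits, 20 rose and 5 fell by 6 h in PEO1 BRCA+, while 18 rose and 4 fell in PEO4 (medians 0.25 and 0.24). In that list SEM1, a small acidic partner of BRCA2, changed most at 6 h in both lines (1.02 and 0.98, edgeR adjusted p = 5.17e-12 and 8.33e-13). Of 18 tested genes of the damage checkpoint and its chromatin response, 7 rose and 3 fell in PEO1 BRCA+, while 10 rose and 8 fell in PEO4 (medians 0.15 and 0.23). Of 12 genes of shieldin and end joining, 7 rose and 2 fell in PEO1 BRCA+, while 8 rose and 1 fell in PEO4 (medians 0.25 and 0.46), led by LIG4, the ligase of end joining (1.003 and 1.35). The lists were drawn up with results of these data known, and the part of proliferation in the repair gene changes was not tested.

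The members were also compared by their start sites, since PDS binds guanine-rich DNA. RefSeq promoters of GRCh38.p14, from 250 bases before to 50 after the start, were on hand for 31 of the 34 genes, all but NBN, RAD54B and FANCI. A G-run motif, 4 runs of GGG with 1 to 7 bases between them on either strand, was found in 7 of the 31 (22.6%), ATR, BARD1, FANCC, RAD51D, RBBP8, RIF1 and TP53BP1, and in 29.7% of 18292 promoters of genes in the count tables. An E2F motif, TTTGGCGC, TTTCGCGC, TTTGCCGC or TTTCCCGC on either strand, was found in 5 (16.1%), EXO1, FANCA, FANCC, FANCD2 and XRCC2, and in 4.13% of those promoters. At 6 h in PEO4 the 7 genes with a G-run motif had 1 higher and 3 lower call and a median log2 fold change of -0.06, and the 24 without had 9 higher and 8 lower and a median of 0.04. A match is a description of the letters and not a binding site. Stretches upstream of the start and outside canonical exons are shown for the 5 of these 31 genes with the largest 6 h changes in PEO4 (RAD54B, whose change of 0.81 was larger than those of RAD51B and FANCM, is not among the 31) and, chosen after their values were seen, for 3 genes with a G-run motif, written 5′ to 3′ along the gene with the motif in capitals (GRCh38.p14, RefSeq).
EXO1 (chr1:241848129-241848203, + strand): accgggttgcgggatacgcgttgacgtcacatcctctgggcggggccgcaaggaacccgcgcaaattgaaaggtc
FANCB (chrX:14873070-14873169, - strand): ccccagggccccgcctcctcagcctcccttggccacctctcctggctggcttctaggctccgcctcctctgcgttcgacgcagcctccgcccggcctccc
RAD51C (chr17:58692502-58692601, + strand): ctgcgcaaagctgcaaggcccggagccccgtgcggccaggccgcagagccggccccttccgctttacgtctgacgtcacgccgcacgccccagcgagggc
RAD51B (chr14:67823441-67823540, + strand): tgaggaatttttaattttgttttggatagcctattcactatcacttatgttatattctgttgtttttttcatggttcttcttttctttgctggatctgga
FANCM (chr14:45135830-45135929, + strand): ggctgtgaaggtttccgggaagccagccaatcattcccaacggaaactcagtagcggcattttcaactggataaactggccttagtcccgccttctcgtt
RIF1 (chr2:151409753-151409825, + strand): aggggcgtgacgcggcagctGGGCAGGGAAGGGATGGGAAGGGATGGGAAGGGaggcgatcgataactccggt
BARD1 (chr2:214809701-214809850, - strand): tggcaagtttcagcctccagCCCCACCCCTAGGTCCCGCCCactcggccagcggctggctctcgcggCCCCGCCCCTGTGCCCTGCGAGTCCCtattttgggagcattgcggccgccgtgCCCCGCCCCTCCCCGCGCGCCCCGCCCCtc
ATR (chr3:142578880-142578941, - strand): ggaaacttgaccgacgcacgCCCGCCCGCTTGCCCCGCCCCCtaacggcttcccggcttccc
The first 5 held neither motif in the bases shown, and that says only that these letters are not in these stretches. The RefSeq starts used for RAD51B, EXO1, FANCB and RAD51C lie within the GENCODE spans of these genes. Their stretches are therefore wholly or partly inside those spans, and the span of RAD51B begins at chr14:67819779. RIF1 carries its G runs on the gene strand, while BARD1 and ATR carry theirs on the other strand and so appear as runs of C. Of these, RIF1 rose and BARD1 fell at 6 h in PEO4, and ATR was at -0.04 then.

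The genes lie on 18 chromosomes and span 3.3 kb (FANCF) to 910.4 kb (RAD51B), with a median of 78.3 kb. Gene length was only weakly related to the changes. Across the 34 genes, log2 length and log2 fold change at 6 h had a Pearson r of -0.15 in PEO1 BRCA+ and -0.04 in PEO4, and for 6 h against 2 h in PEO1 BRCA+ r was -0.42, or -0.29 without RAD51B. These are descriptions across genes of the same libraries. At least 1 other gene of the table overlaps 21 of the members, and the strand setting of the counting was not given in the sources used here.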

How the data were processed

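Counts of 24 libraries were analysed, 6 in set A and 18 in set B. The authors enriched polyadenylated RNA, sequenced paired ends and deposited the raw counts of each gene, as whole numbers and not normalized. The submitters' processing notes name FastQC, fastp, STAR, featureCounts and hg38, and versions, annotation and strand setting were not given in the sources used here. Set A was prepared with a directional kit, and the kit of set B was not given in the sources used here.

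Each table lists 28277 genes, after 2 lines of set A and 1 of set B without readable counts were left out. In R 4.3.3, edgeR 4.0.16 kept genes by filterByExpr (minimum count 10, minimum total 15), scaled libraries by TMM and fitted a quasi-likelihood model with a mean per group to all libraries of a table, with 4 and 12 residual degrees of freedom, and a joint model of 24 libraries (17531 genes) for the difference between the sets. P-values were adjusted by Benjamini-Hochberg over all genes tested, and a gene was called at an adjusted p under 0.05. Log2 fold changes come from the fit and CPM from TMM. SDs are over the 3 libraries of a group. SEs were derived from the log2 fold change and its F statistic. That statistic rests on a spread estimated over all libraries of the fit and moderated across genes. The p-values measure the spread between libraries of single lines. No pair of replicates agreed within sampling noise. With 3 libraries against 3, an exact 2-sided permutation test cannot go below 0.10. The fits were tested on simulated data. The depth of at least 18699929 counts per library gave at least 60 counts for each repair gene.

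Coordinates and lengths came from GENCODE release 44, and promoters from RefSeq. The 34 genes, their roles and the other lists were chosen with earlier results of these data known. All 34 are named, and of each other list at most the 2 called genes with the largest change in a comparison. Alternatives were library totals, DESeq2 size factors, upper-quartile scaling, the Wald test of DESeq2 1.42.0, no filter or a mean CPM of at least 1, a 2-fold limit, fits to the compared groups alone, a replicate block, and the omission of every library by itself. G4 maps, chromatin accessibility and viability were not analysed here. Some genes are not reported here.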

Additional observations from a re-analysis of the deposited data

Results flagged for a closer look

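The effects listed here were each found to differ between 2 groups by a test of the difference itself, an interaction term of the edgeR quasi-likelihood fit with Benjamini-Hochberg adjustment over all genes. Values are differences of log2 fold changes, from 3 libraries in each group.

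After 2 h of PDS, the response of PEO4 lay above that of PEO1 BRCA+ for RBBP8 (0.55), CHEK2 (0.54) and FANCB (0.38). It lay below for FANCA (-0.36), FANCF (-0.35), ATR (-0.35), FANCG (-0.24), TP53BP1 (-0.23) and RAD50 (-0.22). Adjusted p ran from 8.66e-05 to 0.0478, and for FANCB, FANCF, FANCG, RAD50 and TP53BP1 the call was lost under at least 1 alternative.

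After 6 h, the response of PEO4 lay above that of PEO1 BRCA+ for FANCB (0.99), BRCA2 (0.93), FANCM (0.80), RAD54B (0.52), RIF1 (0.48), XRCC3 (0.47), XRCC2 (0.41), CHEK1 (0.38), EXO1 (0.36) and NBN (0.33). It lay below for FANCF (-0.81), RAD51B (-0.63), MRE11 (-0.40) and RBBP8 (-0.34). Adjusted p ran from 4.02e-06 to 0.0163. Without replicate 2 of untreated PEO4 the value of RBBP8 was -0.21.

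The line difference, PEO4 against PEO1, was higher in set A than in untreated set B for NBN (0.80), BRCA2 (0.68), RAD51C (0.67), FANCM (0.52), FANCB (0.44) and ATR (0.29). It was lower for RBBP8 (-1.82), RAD51B (-0.61), MRE11 (-0.60), EXO1 (-0.52), FANCL (-0.48), FANCD2 (-0.47), RAD51D (-0.45) and CHEK1 (-0.30). Adjusted p ran from 6.77e-13 to 0.0486, and the calls of ATR, FANCB and CHEK1 were lost under at least 1 alternative. The sets differ in PEO1 culture, medium, library depth and ribosomal RNA share, which cannot be told apart.

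Groups of 3 libraries are too small for a test of outlying libraries.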

How the results depend on the processing

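Of 187 calls over the 34 genes and 11 comparisons, 140 were kept under every alternative fit and 47 were not. The largest change among those 47 was 0.47 on the log2 scale, so small changes depend on single libraries or on the scaling. Replicates are libraries of single lines, and counts do not tell fewer cells from less RNA per cell.

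A limit of 2-fold moved every count. Past it, 3 genes were higher and 2 lower in PEO4 of set A, 0 higher and 2 lower in untreated set B, 1 higher and 1 lower between 2 and 6 h in PEO4, and 0 higher and 1 lower in the difference between the sets. It left 0 in the other comparisons. Scaling by library totals gave 3 genes higher and 16 lower after 2 h in PEO1 BRCA+ (8 and 8 with TMM), 5 and 12 after 6 h (10 and 7 with TMM) and 5 higher after 2 h in PEO4 (8 with TMM). It turned the 6 h changes of RAD50 and FANCL in PEO4 to -0.0085 and -0.0053. A change of sign was counted as a reversal where the value passed the threshold in either fit. Upper-quartile scaling gave 5 higher and 13 lower after 2 h in PEO1 BRCA+. Fits to the compared groups alone gave 5 higher after 2 h in PEO4 and 5 higher between 2 and 6 h in PEO1 BRCA+ (3 in the whole fit). A mean CPM of at least 1 as filter gave 7 lower responses of PEO4 at 6 h (4 otherwise). Shares of all genes called were not computed under these alternatives, and the causes of these shifts were not tested.

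When single libraries were left out, the genes higher at 6 h than at 2 h in PEO1 BRCA+ numbered 1 to 2 and those lower 0 to 1. The genes whose 2 h response was lower in PEO4 numbered 3 (without replicate 2 of untreated PEO1 BRCA+) to 7. The other counts stayed within 1.5 times their value.

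Same-numbered libraries of different groups showed little common deviation (r from -0.04 to 0.03 over 3 pairs in set A and -0.19 to 0.16 over 45 pairs in set B). Such correlations cannot exclude that these libraries were handled together, and the main fits did not pair them. A replicate block gave 11 genes higher and 11 lower in set A, 16 and 9 in untreated set B, 13 and 11 after 6 h in PEO4, and 4 and 8 in the difference between the sets.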

Other observations

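Of the 34 genes, RBBP8 had the line difference that differed most between the sets, and its neighbours on chromosome 18 were then looked at, a choice made after its values were seen. Of 10 genes within 1 Mb that were tested in both sets, none had a lower line difference in set A than in set B at an edgeR adjusted p under 0.05 and 1, TMEM241, had a higher one (1.002, adjusted p = 6.31e-05). Their median difference between the sets was -0.01 on the log2 scale, where RBBP8 had -1.82. GATA6, a transcription factor gene upstream of RBBP8, was lower in PEO4 by a like amount in both sets (-3.31 and -3.34, adjusted p = 1.29e-06 and 4.26e-13).

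H2AX, the histone whose phosphorylated form marks breaks, was 1.15 higher on the log2 scale in untreated PEO4 of set B (edgeR adjusted p = 3.62e-13). It was lower after 2 h of PDS in PEO4 (-1.13, adjusted p = 1.14e-12), a change that differed from that in PEO1 BRCA+ (-1.18, adjusted p = 1.62e-09). Library depth and ribosomal RNA share also differed between treated and untreated libraries, and they cannot be told apart from PDS.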
